A study of Rattus norvegicus with 36 samples.

Results

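The genes of 9 Toll-like receptors, Tlr1 to Tlr9, and of the co-receptor Cd14 were followed in rat lungs after instillation of DQ-12, a crystalline silica dust. The members were the genes carrying one of these 10 names on the array, where 14 probes represented them. All 10 passed the filter on low signals, among 23940 genes tested.
Female Sprague Dawley rats, aged 13 weeks at the start, received either 10 mg of DQ-12 suspended in sterile saline, as a single intratracheal dose, or the saline alone (vehicle). Lungs were taken after 1, 30, or 180 days (D1, D30, and D180), with 6 vehicle and 6 DQ-12 rats at each time point, and RNA from the accessory lobe was labeled and hybridized, 1 single-color array per rat. The DQ-12 had been ground again before use, which per the study's methods left traces of tungsten and cobalt in it. The arrays measure RNA of the whole lobe, so that a change in the number of cells of a type cannot be told apart from a change in the RNA of each cell.

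Toll-like receptors are membrane proteins that bind molecules of microbes and of damaged tissue and start innate immune signaling. Tlr2 works as a pair with Tlr1 or Tlr6 at the cell surface and binds lipoproteins. Tlr4 binds lipopolysaccharide together with its partner Ly96, and Tlr5 binds bacterial flagellin. Tlr3, Tlr7, Tlr8, and Tlr9 sense nucleic acids in endosomes. Cd14 is an anchored surface protein of monocytes and macrophages that passes lipopolysaccharide and lipopeptides on to Tlr4 and Tlr2. The receptors signal through the adaptors Myd88 and Ticam1 to NF-kB and interferon regulatory factors. In the lung they are known from alveolar macrophages, neutrophils, dendritic cells, and epithelium.

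Tlr1, Tlr2, and Tlr6 are close relatives, and the 60-base probes that stood for them on the array lie in a related stretch of their transcripts. The sequences are shown because the 3 genes are read side by side here. All 3 probes contained the run in capitals.
Tlr1: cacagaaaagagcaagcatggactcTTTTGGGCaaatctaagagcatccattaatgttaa
Tlr2: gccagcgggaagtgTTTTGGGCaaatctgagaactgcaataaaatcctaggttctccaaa
Tlr6: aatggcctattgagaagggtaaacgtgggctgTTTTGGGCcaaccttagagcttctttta
The longest run shared by the Tlr1 and Tlr2 probes was 14 bases. Without gaps, the best alignment of the Tlr1 and Tlr6 probes matched 37 of 53 bases (69.8%), that of Tlr1 and Tlr2 32 of 49 (65.3%), and that of Tlr2 and Tlr6 27 of 42 (64.3%). Whether one transcript bound the probe of another was not tested. The array file places the Tlr1 probe at chr14:46124542-46124601 and the Tlr6 probe at chr14:46100547-46100606, both on the plus strand, and the Tlr2 probe at chr2:175608160-175608217 on the minus strand, without naming the rat genome build. It places that of Cd14 at chr18:29374990-29375049 on the minus strand. In RefSeq, Tlr6, Tlr1, and Tlr10 follow each other on chromosome 14 with 0 other genes starting between them, and Tlr7 and Tlr8 are neighbors on the X chromosome. The accession of the probe matched the same symbol in RefSeq for 9 of the 10 members. The accession of the Tlr3 probe, from Ensembl, was not in that table.

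Cd14, Tlr1, Tlr2, and Tlr6 were the members that rose after DQ-12. At D1, 4 of the 10 genes were called higher after DQ-12 (Cd14, Tlr1, Tlr2, and Tlr6), against 7.58% of all genes tested. At D30, 2 were higher (Cd14 and Tlr2), against 2.74%. At D180, 4 were higher (again Cd14, Tlr1, Tlr2, and Tlr6), against 7.82%. A gene is called changed here at an adjusted p under 0.05 (limma, all 36 arrays, Benjamini–Hochberg over 23940 genes). No member was called lower at any time point (0 of 10 in each case). Of all genes, 8.62%, 1.24%, and 9% were called lower at D1, D30, and D180, so that 0 of 10 lies near these shares. At an unadjusted limma p under 0.05, 0 of 10 were lower as well, a threshold at which all genes were not counted.
At the fold change (FC) of at least 2 that the study requires in addition, 0 members were differentially expressed genes (DEGs) at D1 and D30, and 3 were at D180 (Cd14, Tlr1, and Tlr2). Of all genes, 2.02%, 0.915%, and 2.86% were higher DEGs at D1, D30, and D180. In either direction, 736, 252, and 869 of 23940 genes were DEGs, more than the study lists at each time point. The study's analysis included a batch correction, and the fit used here did not. The median log2 FC of the 10 members was 0.25 at D1, 0.31 at D30, and 0.58 at D180, and that of all genes was -0.01, -0.02, and -0.03.

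**Figure D1:**
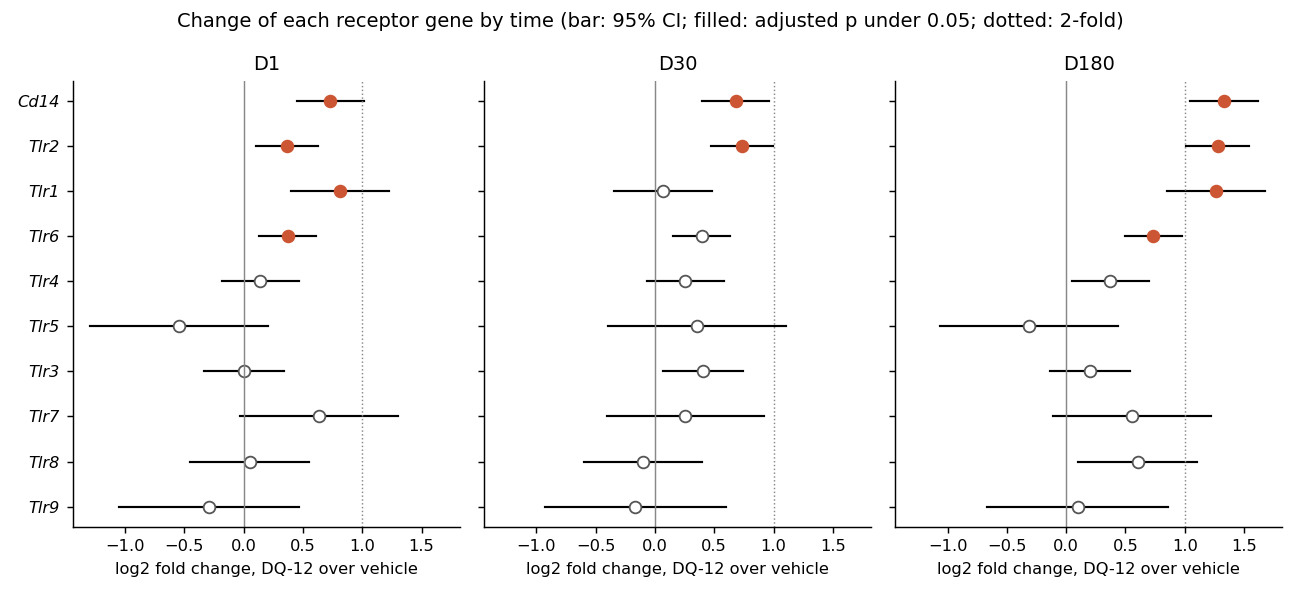
Log2 FC of DQ-12 over vehicle (x axis) for the 10 members (y axis) at D1, D30, and D180, from the fit to 36 arrays. Bars are 95% confidence intervals, filled points have an adjusted p under 0.05, and the dotted line marks a 2-fold change. At D180 the points of Cd14 (1.33), Tlr2 (1.28), and Tlr1 (1.26) lie beyond the dotted line.

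Cd14 separated the groups at each time point. On the log2 scale of normalized intensity, its values at D1 were 10.19, 10.35, and 10.47 in vehicle rats (lowest, median, and highest of 6) and 10.80, 11.07, and 11.43 in DQ-12 rats. At D30 they were 10.24, 10.49, and 10.66 in vehicle rats and 10.86, 10.99, and 11.68 in DQ-12 rats. At D180 they were 10.11, 10.53, and 10.78 in vehicle rats and 11.44, 11.92, and 12.20 in DQ-12 rats.
Each of the 6 DQ-12 rats exceeded every vehicle rat at D1, at D30, and at D180, which held for 5.24%, 1.81%, and 3.84% of all genes. The log2 FC was 0.73 ± 0.14 (SE) at D1 (FC 1.66, adjusted p = 3.38e-04, limma), 0.68 ± 0.14 at D30 (FC 1.60, adjusted p = 0.00257), and 1.33 ± 0.14 at D180 (FC 2.52, adjusted p = 1.71e-08). The exact permutation test of the 12 rats gave a 2-sided p of 0.00216 at each time point, the smallest that 6 against 6 allows. The 6 group means followed the order DQ-12 at D180, D30, and D1, then vehicle at D180, D30, and D1. The ranges of neighbors in that order overlapped, except between DQ-12 at D1 and vehicle at D180.
With slide or scan date as a fixed block the changes at D1 were 0.62 and 0.60 and did not pass the test. In these fits, here and for the other genes, the groups of D1 were compared through 1 vehicle array. The slide fit compared those of D180 through 1 array of each group. Comparisons through 1 array cannot decide whether a call holds. The changes of Cd14 at D30 (0.54 and 0.59, adjusted p = 0.135 and 0.068) did not pass either. Its change at D180 passed with scan date as a fixed block and was 1.55 with slide.

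Tlr2, the shared partner of the lipoprotein receptors, rose at D1, D30, and D180. Its log2 values at D1 were 10.05, 10.30, and 10.51 in vehicle rats and 10.45, 10.57, and 10.94 in DQ-12 rats (lowest, median, and highest of 6), and 3 DQ-12 rats exceeded every vehicle rat. At D30 they were 9.84, 10.07, and 10.36 against 10.51, 10.78, and 11.16. At D180 they were 9.70, 9.93, and 10.32 against 10.80, 11.31, and 11.39.
The groups overlapped at D1 and were separate at D30 and D180, where each DQ-12 rat exceeded every vehicle rat. The log2 FC was 0.37 ± 0.13 at D1 (FC 1.29, adjusted p = 0.0482), 0.74 ± 0.13 at D30 (FC 1.67, adjusted p = 3.89e-04), and 1.28 ± 0.13 at D180 (FC 2.42, adjusted p = 7.98e-09). Vehicle means were 10.29, 10.10, and 9.94 at D1, D30, and D180, and DQ-12 means were 10.65, 10.83, and 11.21, without a test between vehicle groups.
The call at D1 stood close to the threshold: it was lost in 12 of 15 alternative analyses (adjusted p up to 0.607) and in 21 of the 36 fits that left out a rat (adjusted p 0.0361 to 0.12), with the log2 FC between 0.31 and 0.41 in all of them. With slide as a fixed block, the call at D180 was lost as well (1.00), in a fit that compared the groups through 1 array of each.

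**Figure D2:**
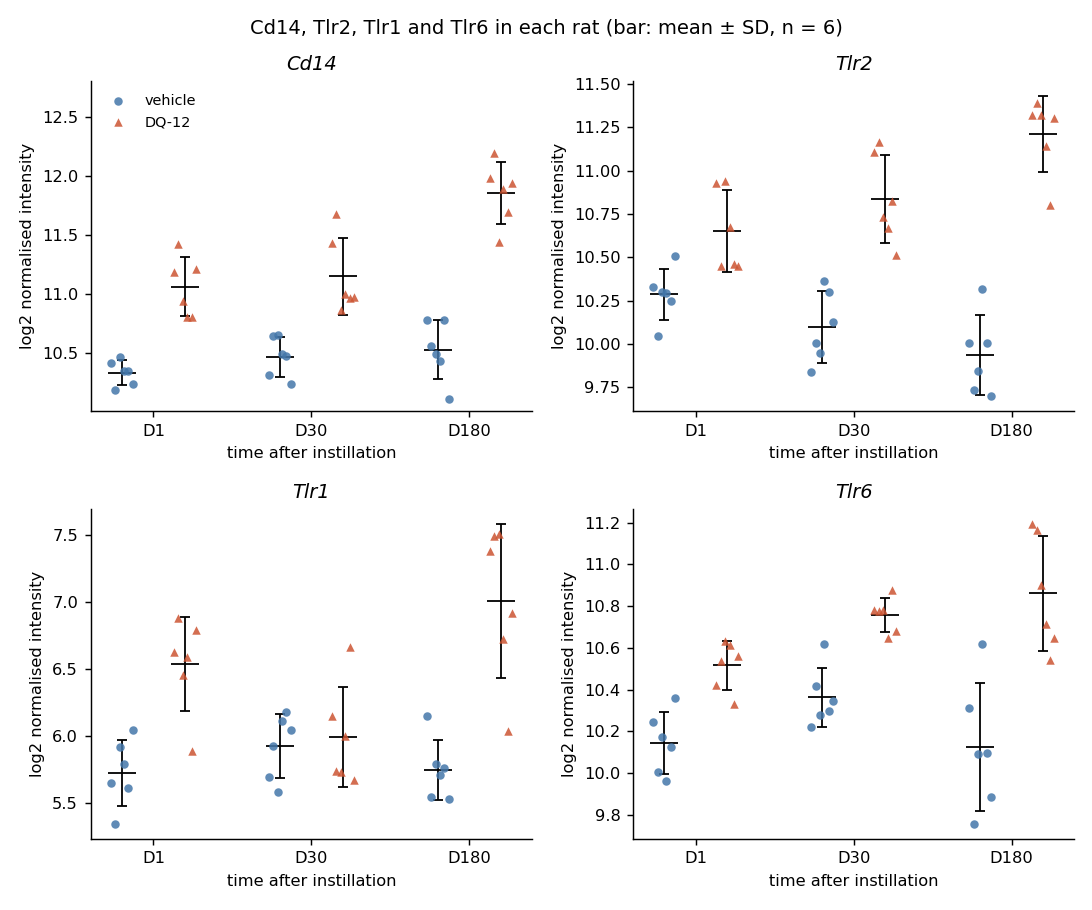
Log2 normalized intensity (y axis) of Cd14, Tlr2, Tlr1, and Tlr6 in each vehicle rat (circles) and DQ-12 rat (triangles) at D1, D30, and D180 (x axis), with the mean and SD of each group of 6. For Cd14 the triangles lie above all circles of the same day at each time point, and for Tlr1 the groups overlap at D30 (means 5.92 and 5.99).

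Of the 10 promoters, that of Tlr2 was the only one with matches to the NF-kB consensus. The window, from 250 bases before to 50 bases after the start of the gene, was taken from RefSeq (GRCr8, chr2:171504508-171504807, minus strand), where all 10 members were found. The matches are in capitals.
Tlr2 promoter: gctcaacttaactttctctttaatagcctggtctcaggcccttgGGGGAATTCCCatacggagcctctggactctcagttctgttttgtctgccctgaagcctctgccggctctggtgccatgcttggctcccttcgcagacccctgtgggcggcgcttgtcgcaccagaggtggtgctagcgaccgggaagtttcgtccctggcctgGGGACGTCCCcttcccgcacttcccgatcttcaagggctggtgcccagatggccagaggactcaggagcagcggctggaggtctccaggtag
The matches formed 2 stretches, 206 to 196 and 42 to 33 bases before the start, and both matched on either strand. Of 33469 rat promoters of the same length, 7.51% held a match and 0.457% held 2 or more separate stretches. The 1 promoter of 10 with a match lies near the share of 7.51%. The promoter of Cd14 (GRCr8, chr18:28611109-28611408, minus strand) had no NF-kB match but held the ETS core GAGGAA in 2 places, 140 to 135 and 105 to 100 bases before the start, shown in capitals.
Cd14 promoter: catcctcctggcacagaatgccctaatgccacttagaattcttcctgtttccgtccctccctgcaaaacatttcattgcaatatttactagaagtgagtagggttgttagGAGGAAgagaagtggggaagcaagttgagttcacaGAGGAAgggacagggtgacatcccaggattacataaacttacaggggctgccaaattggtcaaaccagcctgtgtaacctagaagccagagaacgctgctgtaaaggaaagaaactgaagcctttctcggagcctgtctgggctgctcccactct
This core was searched on both strands and was found in 7 of the 10 members (Cd14, Tlr3, Tlr4, Tlr6, Tlr7, Tlr8, and Tlr9) and in 27.6% of all promoters. Tlr1 and Tlr5 held none of the 7 motifs searched. The AP-1 motif TGANTCA was found in Tlr9 (7.33% of all promoters), the C/EBP motif TTGCNNCAA in Tlr4 and Tlr7 (2.17%), and the SP1 motif GGGCGG in Tlr2 (33.1%). The STAT motif TTCNNNGAA (8.87%) and the interferon-stimulated response element (3.92%) were found in 0 members. A match is a description of the letters and not evidence of binding.

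Tlr1, which pairs with Tlr2 to bind triacylated lipopeptides, rose at D1 and D180 and not at D30. Its log2 values at D1 were 5.35, 5.72, and 6.04 in vehicle rats and 5.89, 6.61, and 6.88 in DQ-12 rats (lowest, median, and highest of 6). At D30 they were 5.58, 5.98, and 6.18 against 5.67, 5.87, and 6.66. At D180 they were 5.53, 5.73, and 6.15 against 6.04, 7.15, and 7.50.
At D1 and at D180, 5 of 6 DQ-12 rats exceeded every vehicle rat, and the exception was replicate 5 (5.89 at D1 and 6.04 at D180). The log2 FC was 0.81 ± 0.20 at D1 (FC 1.75, adjusted p = 0.00534) and 1.26 ± 0.20 at D180 (FC 2.40, adjusted p = 2.49e-05). At D30 it was 0.07 ± 0.20 (adjusted p = 0.954), with a 95% confidence interval of -0.34 to 0.48, and the groups overlapped. With slide or scan date as a fixed block, the change at D1 was 0.55 and 0.62, through 1 vehicle array, and did not pass. The change at D180 passed in all 15 alternatives.

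Tlr6, which pairs with Tlr2 to bind diacylated lipopeptides, rose at D1 and D180. Its log2 values at D1 were 9.96, 10.15, and 10.36 in vehicle rats and 10.33, 10.55, and 10.63 in DQ-12 rats. At D30 they were 10.22, 10.32, and 10.62 against 10.65, 10.78, and 10.88. At D180 they were 9.76, 10.09, and 10.62 against 10.54, 10.81, and 11.19.
Each DQ-12 rat exceeded every vehicle rat at D30, and 5 of 6 did so at D1 and at D180. The log2 FC was 0.37 ± 0.12 at D1 (FC 1.29, adjusted p = 0.0274), 0.39 ± 0.12 at D30 (FC 1.31, adjusted p = 0.0501), and 0.73 ± 0.12 at D180 (FC 1.66, adjusted p = 2.20e-05). The value at D30 thus lay just outside the threshold, and it lay inside in 10 of 17 alternatives (adjusted p 0.00783 to 0.542 over all 17).
The call at D1 was kept in only 7 of 17 alternatives and depended on the probe. Tlr6 had 3 probes, of which the brightest (A_44_P200968, printed above) was used. A second probe of the same transcript (A_44_P1081244), which shares at most 6 bases in a row with the Tlr1 and Tlr2 probes, gave 0.07 ± 0.11 at D1 (adjusted p = 0.745), 0.46 ± 0.11 at D30 (adjusted p = 0.0108), and 0.74 ± 0.11 at D180 (adjusted p = 5.99e-06), in a limma fit over 42200 probes. The third (A_44_P1112671), for a predicted transcript variant, gave -0.12 ± 0.13, 0.20 ± 0.13, and 0.04 ± 0.13 (adjusted p = 0.594, 0.542, and 0.902). The second probe lay between the other probes in mean level, and the median of the 3 probes gave its values (0.07 at D1 and 0.46 at D30). The 17 alternatives hold both that probe and this median. With the median in place of the brightest, the change of Tlr6 was larger at D180 than at D1, by 0.67 (adjusted p = 0.00790). This is thus a result of the second probe and not of 3 probes together.
Without vehicle replicate 2 or 4 or DQ-12 replicate 2, 3, or 4 of D1, the adjusted p at D1 was 0.0513 to 0.0666. The change at D1 also did not pass with slide or scan date as a random block (adjusted p = 0.0521 and 0.0764). The same held with 75th percentile scaling (adjusted p = 0.0580) and with the authors' log2 values (adjusted p = 0.0597). As fixed blocks, slide and scan date gave 0.31 and 0.34 at D1, through 1 vehicle array, and the change did not pass. With slide as a fixed block, the change at D180 was 0.58, through 1 array of each group, and did not pass.

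**Figure D3:**
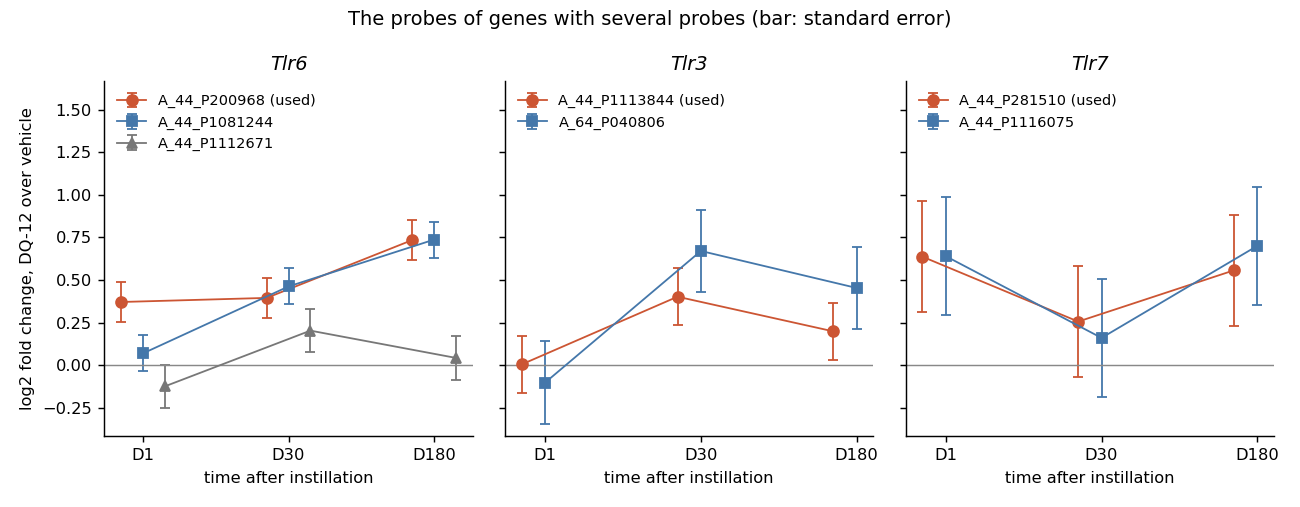
Log2 FC of DQ-12 over vehicle (y axis) at D1, D30, and D180 (x axis) for each probe of Tlr6, Tlr3, and Tlr7, with standard errors. The used probe of each gene is marked. The used and the second Tlr6 probe lie together at D180 (0.73 and 0.74) and apart at D1 (0.37 and 0.07), and the third Tlr6 probe stays near 0.

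Tlr4 and Tlr5, the other receptors of the cell surface, did not pass the test at any time point. The log2 values of Tlr4, the receptor for lipopolysaccharide, at D180 were 8.85, 9.11, and 9.47 in vehicle rats and 9.08, 9.44, and 10.11 in DQ-12 rats, where 3 of 6 exceeded every vehicle rat. Its log2 FC was 0.14 ± 0.16 at D1 (adjusted p = 0.619), 0.25 ± 0.16 at D30 (adjusted p = 0.479), and 0.37 ± 0.16 at D180 (adjusted p = 0.116). The interval at D180 was 0.05 to 0.70, so that both 0 and a change of 2-fold lie outside it (unadjusted p = 0.0266, limma). With scan date as a block, the change of Tlr4 at D180 passed (0.58, adjusted p = 0.00831 as a fixed block; 0.41, adjusted p = 0.0462 as a random block).
Tlr5, the flagellin receptor, varied widely among rats. Its log2 values at D1 were 6.61, 6.96, and 8.33 in vehicle rats and 5.87, 6.89, and 7.17 in DQ-12 rats, and at D30 they were 3.89, 4.83, and 6.69 against 4.69, 5.52, and 6.08. The groups overlapped, and the log2 FC was -0.55 ± 0.37 at D1, 0.35 ± 0.37 at D30, and -0.31 ± 0.37 at D180 (adjusted p = 0.347, 0.750, and 0.649). Vehicle means of Tlr5 were 7.18 at D1, 5.08 at D30, and 6.03 at D180, a spread wider than the difference between DQ-12 and vehicle at any time point. The vehicle groups were not compared by a test.

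The endosomal receptors also did not pass. Tlr3, which binds double-stranded RNA, had log2 values at D30 of 9.20, 9.58, and 10.22 in vehicle rats and 9.68, 10.04, and 10.41 in DQ-12 rats, with the groups overlapping. Its log2 FC was 0.00 ± 0.17 at D1, 0.40 ± 0.17 at D30, and 0.20 ± 0.17 at D180 (adjusted p = 0.991, 0.198, and 0.488, with an unadjusted limma p of 0.0207 at D30). Its second probe (A_64_P040806) gave -0.10 ± 0.24, 0.67 ± 0.24, and 0.45 ± 0.24 (adjusted p = 0.848, 0.158, and 0.260).
Tlr7 and Tlr8 bind single-stranded RNA and were dim. Tlr7 was well above background on 31 of 36 arrays, with 3 of 6 vehicle arrays at D1, and its log2 values there ranged from 3.06 to 5.61 in vehicle rats and from 4.41 to 5.36 in DQ-12 rats. The log2 FC of Tlr7 was 0.64 ± 0.33 at D1, 0.26 ± 0.33 at D30, and 0.56 ± 0.33 at D180 (adjusted p = 0.195, 0.818, and 0.280). Its intervals at D1 (-0.03 to 1.30) and D180 (-0.11 to 1.22) include both 0 and a 2-fold change.
Tlr8 was well above background on 29 of 36 arrays. Its log2 values at D180 were 3.84, 4.76, and 5.55 in vehicle rats and 5.14, 5.19, and 5.76 in DQ-12 rats, where the DQ-12 values were closer together and 2 of 6 exceeded every vehicle rat. The log2 FC was 0.05 ± 0.25 at D1, -0.10 ± 0.25 at D30, and 0.60 ± 0.25 at D180 (adjusted p = 0.927, 0.939, and 0.0932, with an unadjusted limma p of 0.0196 at D180). Without vehicle replicate 4 of D180 it was 0.76 at D180 (adjusted p = 0.0270).
Tlr9, the receptor for unmethylated CpG DNA, had a log2 FC of -0.29 ± 0.37, -0.17 ± 0.37, and 0.10 ± 0.37 at D1, D30, and D180 (adjusted p = 0.663, 0.927, and 0.913). Its log2 values at D180 were 5.62, 6.05, and 7.91 in vehicle rats and 5.26, 6.61, and 7.31 in DQ-12 rats, so that both groups spread over the same range.

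**Figure D4:**
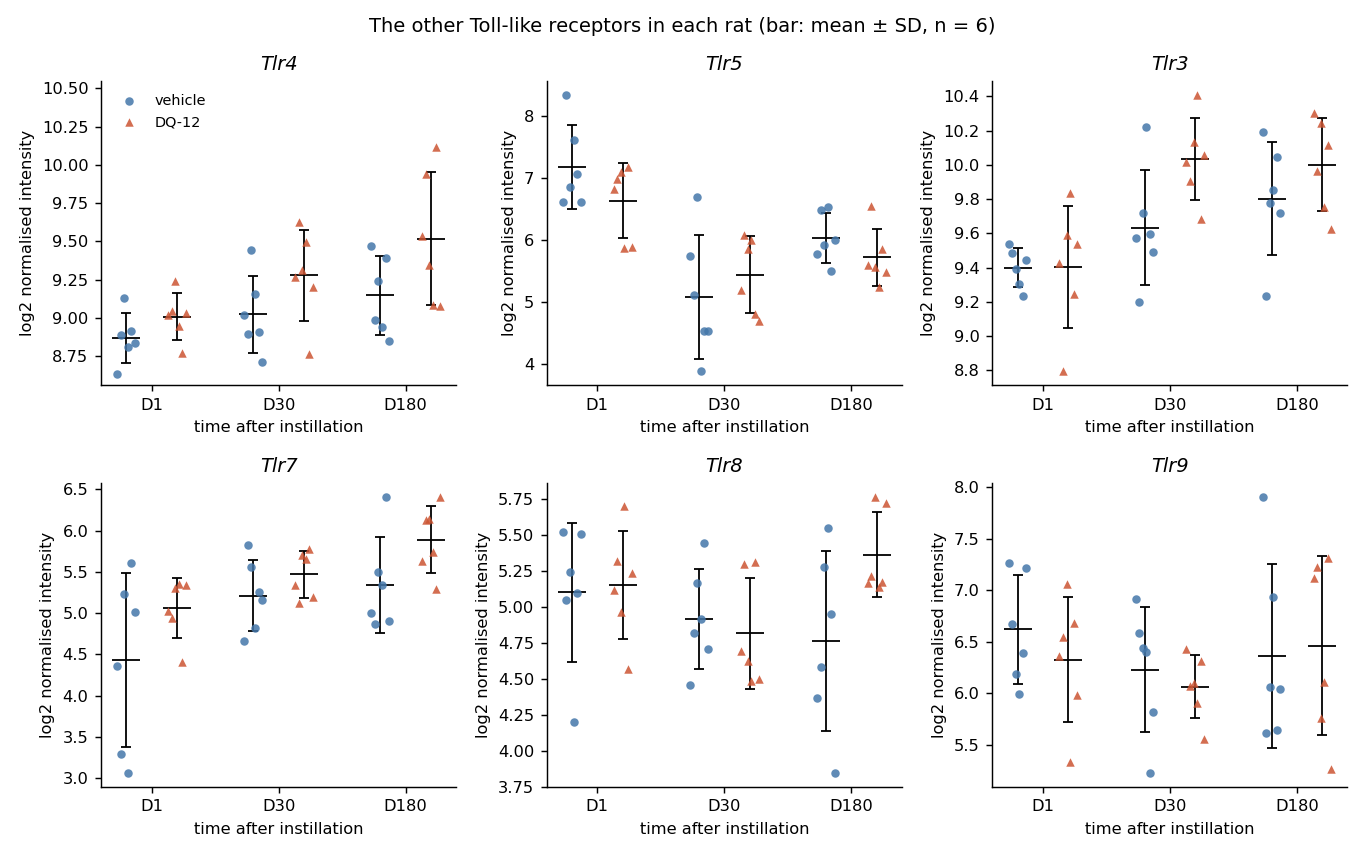
Log2 normalized intensity (y axis) of Tlr4, Tlr5, Tlr3, Tlr7, Tlr8, and Tlr9 in each vehicle rat (circles) and DQ-12 rat (triangles) at D1, D30, and D180 (x axis), with the mean and SD of each group of 6. The groups overlap for each of the 6 genes at each time point, and Tlr5 in vehicle rats spans 3.89 to 6.69 at D30.

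A change that passed at one time point and not at another was tested for a difference between them as an interaction in the same fit. The change of Tlr2 was larger at D180 than at D1, by 0.91 ± 0.18 on the log2 scale (adjusted p = 0.00249). With slide or scan date as a fixed block, this difference was 0.60 and 0.88 and did not pass. Those fits compare the groups of D1 through 1 vehicle array. Tlr2 was the only 1 of the 10 members called in that comparison, where 4.55% of all genes were. The change of Cd14 was larger at D180 than at D1 by 0.60 ± 0.20, which did not pass (adjusted p = 0.0744), nor did the difference for Tlr6 (0.36 ± 0.17, adjusted p = 0.221) or Tlr1 (0.45 ± 0.29, adjusted p = 0.415).
Between D30 and D180, 0 members were called in limma (0.246% of all genes). The unadjusted p was under 0.05 for Cd14, Tlr1, Tlr2, and Tlr6, a threshold at which all genes were not counted. The difference was largest for Tlr1, at 1.19 ± 0.29 (adjusted p = 0.0610). It passed without vehicle replicate 3 of D30 (adjusted p = 0.0354), DQ-12 replicate 5 of D30 (adjusted p = 0.0224), or DQ-12 replicate 5 of D180 (adjusted p = 0.00817). Between D1 and D30, 0 members were called (2.18% of all genes), and the unadjusted p was under 0.05 for Tlr1 and Tlr2. The change of Tlr1 was smaller at D30 by 0.74 on the log2 scale (-0.74 ± 0.29, adjusted p = 0.180), and that of Tlr2 was larger by 0.37 ± 0.18 (adjusted p = 0.309). The absence of a called change of Tlr1 at D30 was therefore not shown to differ from D1. These comparisons share the vehicle and DQ-12 rats of each day.

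The arrays lay on 19 slides scanned on 11 dates. At D1, all DQ-12 arrays shared a scan date with 1 vehicle array, and the other 5 vehicle arrays were scanned on other dates, so that at D1 the groups and the scan date are largely the same division. Within that scan date, DQ-12 rats exceeded the 1 vehicle rat on average by 0.60 for Cd14, 0.62 for Tlr1, 0.35 for Tlr2, and 0.34 for Tlr6 on the log2 scale. These are the same values that scan date as a fixed block gave at D1.
At D30, the 2 scan dates held 4 vehicle and 1 DQ-12 and 2 vehicle and 5 DQ-12 arrays. The differences within them were 0.55 and 0.61 for Cd14, 0.76 and 0.68 for Tlr2, 0.56 and 0.29 for Tlr6, and 0.70 and 0.01 for Tlr1. At D180, the scan date with 3 arrays of each group gave 1.30 for Cd14, 1.29 for Tlr2, 1.57 for Tlr1, and 0.75 for Tlr6, and the date with 1 array of each gave 1.14, 1.06, 0.49, and 0.78. The other arrays of D180 were scanned on dates that held 1 group only. Cd14, Tlr2, and Tlr6 were higher in DQ-12 rats in each scan date that held both groups, and Tlr1 was near 0 in one of those of D30. Several of these dates held only 1 array of a group. Among slides that held both groups, Tlr1 was lower in DQ-12 rats on 1 slide of D30 (-0.20).

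The genes whose changes at the 3 time points lay nearest to those of a member were found by the largest of the 3 differences in log2 FC. For Cd14 these were P2ry6, a receptor for uridine nucleotides (0.73, 0.70, and 1.27 at D1, D30, and D180, within 0.06 of Cd14), and Lrp8, a lipoprotein receptor (within 0.07). For Tlr2 they were Slc27a6, a fatty acid transporter (0.36, 0.69, and 1.34, within 0.06), and Gpr183, an oxysterol receptor of immune cells (within 0.08). For Tlr6 they were Rhou and Fgd3 (both within 0.04). For Tlr1 they were Mcpt1l3, named as a mast cell protease (0.76, 0.09, and 1.23, within 0.05), and Csmd3 (within 0.13). All are measured on the same 36 arrays over 3 time points.

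Of the Toll-like receptor genes outside the set, Tlr10, Tlr11, and Tlr12 were measured. Of these 3, 0 were called at D1, 2 were higher at D30, and 3 at D180, against 2.74% and 7.82% of all genes higher at D30 and D180. Tlr10, the neighbor of Tlr1 and Tlr6, had a log2 FC of 0.63 ± 0.32 at D1 (adjusted p = 0.186), 1.41 ± 0.32 at D30 (adjusted p = 0.00695), and 1.61 ± 0.32 at D180 (adjusted p = 3.68e-04), and was well above background on 1 of 6 vehicle arrays at each time point and on 1, 5, and 4 DQ-12 arrays. The size of its change therefore rests on vehicle signals that were mostly not well above background. Tlr11 rose at D180 (1.48 ± 0.38, adjusted p = 0.00455), with 2 vehicle and 5 DQ-12 arrays well above background. Tlr12, well above background on every array, rose at D30 (1.02 ± 0.26, adjusted p = 0.0171) and D180 (0.97 ± 0.26, adjusted p = 0.00644), although at D180 no DQ-12 rat exceeded every vehicle rat. These values are of 1 probe (A_44_P1106132), and the change of the second Tlr12 probe on the array (A_44_P1080735) was not examined.

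Accessory proteins fold, carry, cleave, or assist the receptors. Of 15 such genes, 4 were higher at D1, 6 at D30, and 11 at D180, and 0 were lower, with medians of 0.32, 0.38, and 0.72. Among all genes, 7.58%, 2.74%, and 7.82% were higher at these time points. Ctsk, a lysosomal cysteine protease that acts on endosomal receptors, had a log2 FC of 0.25 ± 0.24 at D1 (adjusted p = 0.539), 1.04 ± 0.24 at D30 (adjusted p = 0.00823), and 2.88 ± 0.24 at D180 (adjusted p = 1.49e-10). Scimp, a transmembrane adaptor that binds Toll-like receptors, rose at D1, D30, and D180 (0.66, 0.94, and 1.47, each ± 0.15).
Unc93b1, the chaperone that brings endosomal receptors to their compartment, rose as well (0.51, 0.41, and 0.84), although none of Tlr3, Tlr7, Tlr8, and Tlr9 was called. Ly96, the partner of Tlr4, was higher at D180 (0.66, called) and not called at D1 (0.14) or D30 (0.38). Lbp, which hands lipopolysaccharide to Cd14, rose at D180 (0.89 ± 0.20, adjusted p = 0.00174), as did the endosomal transporter Slc15a3 at D30 and D180 (0.54 and 1.00, each ± 0.11).

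Adaptors and kinases carry the signal from the receptors into the cell. Of 23 such genes, 0 were higher and 5 lower at D1, 1 was higher at D30, and 7 were higher and 0 lower at D180, with medians of -0.02, 0.15, and 0.18. By comparison, 7.58%, 2.74%, and 7.82% of all genes were higher and 8.62%, 1.24%, and 9% lower at D1, D30, and D180. The 1 gene higher at D30 lies near its share. Peli1, a ubiquitin ligase, fell at D1 (-0.60 ± 0.18, adjusted p = 0.0215). Btk, a tyrosine kinase, rose at D180 (1.00 ± 0.18, adjusted p = 1.42e-04), where Irak4 (0.76 ± 0.21, adjusted p = 0.0101) and the Tlr3 and Tlr4 adaptor Ticam1 (0.66 ± 0.21, adjusted p = 0.0238) rose too.
Of 13 transcription factors, 4 were higher and 1 lower at D1, 3 higher at D30, and 8 higher at D180, with medians of 0.22, 0.13, and 0.51. Irf5, which acts below Myd88, separated the groups at each time point, with a log2 FC of 0.46, 0.49, and 1.38 (each ± 0.11, adjusted p = 0.00281, 0.00528, and 4.52e-11). Rel, an NF-kB subunit, rose at each time point (0.60, 0.72, and 0.92, each ± 0.18). Irf8 rose at D1 and D180 (0.37 and 0.82, each ± 0.12), and Irf7 at D180 (0.97 ± 0.23, adjusted p = 0.00251).
Of 17 inhibitors and feedback genes, 2 were higher at D1, 1 at D30, and 4 at D180, where 1 was lower, with medians of 0.18, -0.03, and 0.30. The counts at D1 and D30 lie near the shares of all genes. Zc3h12a, an RNase that degrades cytokine transcripts, rose at D30 (0.92 ± 0.17, adjusted p = 6.03e-04) and D180 (1.29 ± 0.17, adjusted p = 6.67e-07). Socs1, an inhibitor of cytokine signaling, rose at D1 (1.18 ± 0.39, adjusted p = 0.0350). Nfkbie (0.81 ± 0.14, adjusted p = 5.20e-05) and Tnip3 (1.60 ± 0.41, adjusted p = 0.00536), which restrain NF-kB, rose at D180. Tnip3 was well above background in 2 of 6 vehicle rats there.

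**Figure D5:**
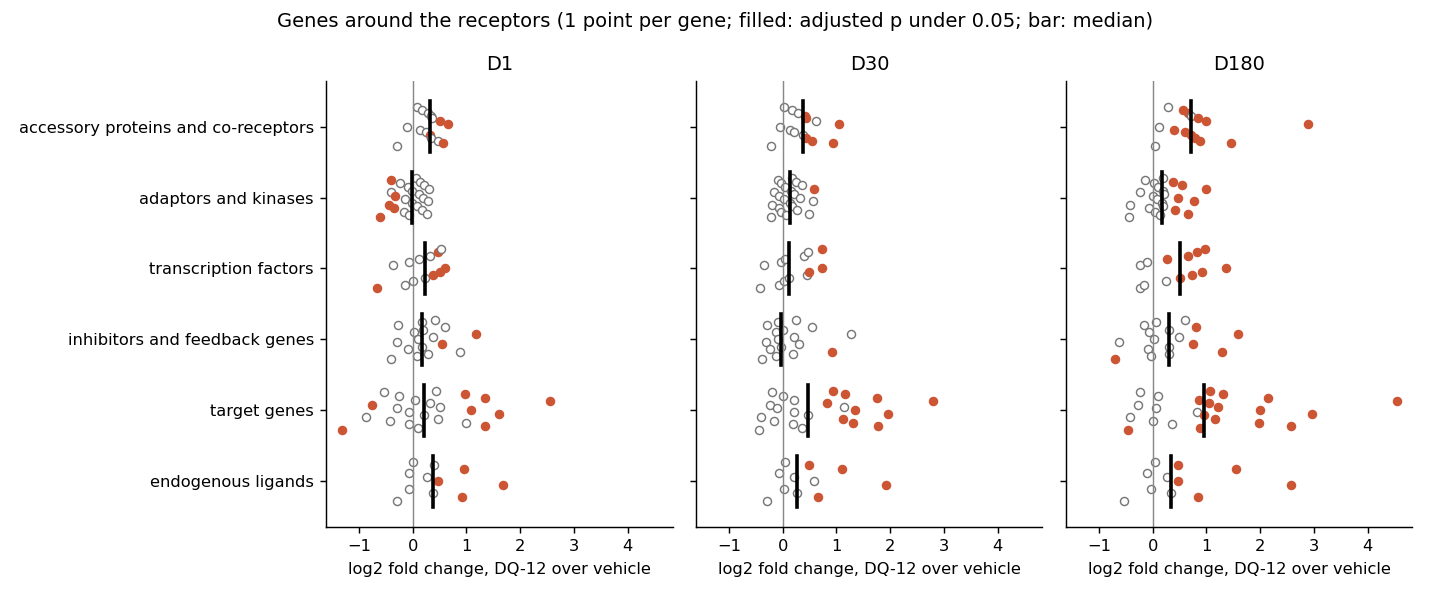
Log2 FC of DQ-12 over vehicle (x axis) for the genes of 6 lists around the receptors (y axis) at D1, D30, and D180. Each point is a gene, filled at an adjusted p under 0.05, and the black bar is the median of the list. The medians of accessory proteins (0.72) and target genes (0.95) stand furthest to the right at D180.

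Target genes are those that Toll-like receptor signaling is known to induce. Of 23, 6 were higher and 2 lower at D1, 10 higher at D30, and 14 higher and 1 lower at D180, with medians of 0.21, 0.48, and 0.95. The shares of all genes were 7.58%, 2.74%, and 7.82% higher and 8.62%, 1.24%, and 9% lower. Ccl2, a monocyte chemokine, rose by a log2 FC of 2.56, 2.80, and 4.54 (each ± 0.24) at D1, D30, and D180, with no overlap of the groups at any time point. Il1rn, the antagonist of interleukin-1, rose by 0.98, 1.13, and 2.57 (each ± 0.16), and the interferon-inducible chemokine Cxcl10 by 1.61, 1.78, and 2.98 (each ± 0.51). Il12b, a subunit of interleukin-12, rose at D180 (2.16 ± 0.33, adjusted p = 1.05e-05), where 2 of 6 vehicle rats gave a signal well above background. Its level at D30 was at least 1.71-fold higher than in vehicle rats, none of whose arrays was well above background (adjusted p = 2.27e-04). The bound sets the mean of the DQ-12 rats against the lowest signal well above background on each vehicle array, or the gene's own value where higher. Il6 was well above background on 0 of 36 arrays, and its call at D180 has no measured level behind it.
Of 11 endogenous ligands tested, 4 were higher at D1, 4 at D30, and 5 at D180, against 7.58%, 2.74%, and 7.82% of all genes. There were 0 lower, and the medians were 0.38, 0.28, and 0.35. S100a8 and S100a9, calcium-binding proteins of phagocytes that bind Tlr4, rose at D30 and D180. At D180 the log2 FC was 1.56 ± 0.24 for S100a8 and 2.57 ± 0.25 for S100a9, and both also belong to the neutrophil markers described below. Tnc, the matrix protein tenascin C, rose at D1 (1.68 ± 0.25, adjusted p = 1.54e-05) and was at -0.53 ± 0.25 at D180 (adjusted p = 0.169). Vcan, a matrix proteoglycan described as a Tlr2 ligand, rose at D1 (0.96 ± 0.20, adjusted p = 0.00121) and D180 (0.85 ± 0.20, adjusted p = 0.00297).

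Markers of lung cell types were counted at the same time points. As a background, 7.58%, 2.74%, and 7.82% of all genes were called higher and 8.62%, 1.24%, and 9% lower at D1, D30, and D180. At D1 and D180, 1 called gene in a list this short lies near these shares. Of 10 neutrophil markers, 1 was higher at D1, 2 at D30, and 5 at D180, with 0 lower. The mean log2 level of this list per rat was 6.39 to 7.08 in vehicle and 6.84 to 7.64 in DQ-12 rats at D1, 6.35 to 7.23 and 7.10 to 7.83 at D30, and 6.67 to 7.27 and 7.83 to 8.37 at D180, where the ranges did not overlap. Of its defining genes, the granule protease Elane was well above background on 0 arrays and Mpo on 9 of 36.
Of 10 monocyte and macrophage markers, 3 were higher and 1 lower at D1, 3 higher at D30, and 4 higher and 2 lower at D180. The mean level of this list was 9.78 to 10.19 and 10.10 to 10.54 at D1, 9.65 to 9.88 and 9.88 to 10.24 at D30, and 9.67 to 10.27 and 10.21 to 10.51 at D180, in vehicle and DQ-12 rats, respectively. Among these markers, Cd68 (1.55) and Itgam (2.19) were higher and Cd163 (-0.89) and Mertk (-0.41) lower at D180. Of 7 alveolar macrophage markers tested, 1, 2, and 2 were higher and 1, 0, and 2 lower. The mean level of this list was 7.84 to 8.42 and 7.82 to 8.30 at D1, 7.94 to 8.39 and 8.31 to 8.65 at D30, and 8.35 to 8.97 and 8.74 to 9.23 at D180.
Of 8 dendritic cell markers, 1, 2, and 3 were higher and 1, 0, and 1 lower at D1, D30, and D180. Of 8 B cell and plasma cell markers, 0, 1, and 2 were higher and 0 lower in limma. Those called were Jchain, the joining chain of secreted antibodies, at D30 and D180 (1.36 and 2.27, each ± 0.30), and Mzb1, a chaperone of antibody-secreting cells, at D180 (2.05 ± 0.23). The mean level of this list was 7.67 to 8.47 in vehicle and 7.37 to 8.16 in DQ-12 rats at D1, 8.04 to 8.87 and 8.29 to 8.74 at D30, and 7.94 to 8.60 and 8.38 to 9.20 at D180. Of 7 T cell markers, 1 was higher at D180.
Of 6 airway epithelium markers, 2 were lower at D1 and 2 at D180, where these were Cyp2f4 (-0.72) and Tppp3 (-0.62). Of 6 fibroblast markers, 1 was higher at D1, and of 6 muscle markers, 1 was lower at D180. At D180, 6 of 6 alveolar type 1 markers were lower (median -0.48), with a mean level of 14.74 to 14.98 in vehicle and 14.22 to 14.43 in DQ-12 rats. Of 6 endothelial markers, 5 were lower (median -0.53), with 13.34 to 13.51 and 12.61 to 13.11. Of 6 alveolar type 2 markers, 0 were lower and 2 higher, with 15.03 to 15.35 and 15.22 to 15.50. The part of these cells in the changes of Cd14, Tlr1, Tlr2, and Tlr6 was not tested.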

How the data were processed

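The authors extracted the deposited intensity values with Agilent Feature Extraction 12.0.1.1 (per the labels), 1 array per rat, and deposited log2 values scaled to the 75th percentile and centered on each probe's median. These relations were found by comparison with the intensities (median absolute difference 0.00177), and the log2 values served as an alternative. The background-corrected intensity was put on the log2 scale. Outlier spots (232 to 596 of 58717 per array) were left out, spots of a probe were averaged, and probes above the 95th percentile of 308 negative controls on at least 6 arrays were quantile normalized. The brightest probe stood for each gene. Between 60.96 and 80.55% of spots per array were well above background, and the number of arrays limits the precision.

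A model with 6 group means was fitted to 36 arrays in limma 3.58.1 (R 4.3.3), with 2-sided tests and Benjamini–Hochberg adjustment over 23940 genes per comparison. The model was also run on simulated data, with known changes larger than those of the members and no slide or scan date effects. That run therefore does not bear on batches or on changes of the size reported here. Means are given ± SD, and changes ± SE. Replicates are separate rats. The study's methods name a batch correction without its variable, so slide and scan date entered only as alternatives. Replicate numbers are shared between groups but do not pair rats: deviations of same-numbered rats correlated between -0.131 and 0.218 (median 0.023), and 6 of 18 pairs exceeded 0.1. Members, gene lists, and tests were chosen with earlier results of these data known. All members were named. Of each list around the receptors, up to 4 changed genes with the largest change at any time point were named, along with the 2 genes nearest in change to each raised member. Unc93b1, Ly96, Il6, and the markers Cd68, Itgam, Cd163, Mertk, Elane, Mpo, Jchain, Mzb1, Cyp2f4, and Tppp3 were named outside this rule, after their values were seen. Gene symbols are those of the array file. Promoters are from RefSeq (GRCr8), and protein sequences were not used here.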

Additional observations from a re-analysis of the deposited data

Results flagged for a closer look

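Tlr8 in vehicle rats at D1 held a sample far from the others. Replicate 4 lay at 4.20 on the log2 scale, against 5.04 to 5.52 in the other rats of the group. It was the only 1 of 60 groups of 6 rats (10 members in 6 groups) in which this occurred, where chance gives about 1 in 20 groups.

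The change of Tlr2 differed between time points, being larger at D180 than at D1 by 0.91 on the log2 scale (SE 0.18, adjusted p = 0.00249, limma interaction), and 6 of 6 DQ-12 rats exceeded every vehicle rat at D180, against 3 of 6 at D1. With slide or scan date as a fixed block the difference was 0.60 and 0.88 and did not pass, in fits that compare the groups of D1 through 1 vehicle array.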

How the results depend on the processing

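The number of members changed was 4 at D1, 2 at D30, and 4 at D180, and the number whose change differed was 0 between D1 and D30, 0 between D30 and D180, and 1 between D1 and D180. Of 87 counts under alternative settings, 69 stayed within 1.5 times of these. At D1 the count was 2 with 75th percentile scaling, the median of a gene's probes, or the authors' log2 values. It was also 2 with slide or scan date as a random block (correlation within blocks 0.387 and 0.251). Of 23940 genes, 3877 were called at D1 in the main fit, and 3860, 3096, 3840, 2569, and 1700 in these settings in order. With slide or scan date as a fixed block no member was called at D1, and fewer of all genes were called than in the main fit. Those fits compare the groups of D1 through 1 vehicle array. At D30 the count of members was 4 with the median of probes, which added Tlr6 and Tlr3 (0.54, adjusted p = 0.0419). At D180 it was 2 with slide as a fixed block, a fit that compares the groups through 1 array of each. The 2-fold threshold left 0 members at D1 and D30 and 0 between D1 and D180. Between D30 and D180 it was 1 (Tlr1) with the filter for signals well above background. Between D1 and D180 it was 2 with that filter, with normexp background correction, and with the median of probes, and 0 with slide or scan date as a fixed block. Leaving out each rat gave 2 to 4 members at D1, 2 to 3 at D30, 4 to 5 at D180, 0 to 0 between D1 and D30, 0 to 1 between D30 and D180, and 1 to 2 between D1 and D180. The third Tlr6 probe reversed the change at D1 to -0.1245. Apart from the counts and the fits that left out a rat, 826 of 882 values of single members kept their side of the threshold. Of the rest, 38 lost and 17 gained the call, and 1 reversed without a call. Values not called in either fit also changed direction in some settings, such as Tlr5 at D1 (-0.61 to 0.15) and Tlr9 at D1 (-0.40 to 0.48). The causes were not tested.

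With the replicate number as a block, the counts were 3 at D1 (Tlr2 was lost, adjusted p = 0.0591), 2 at D30, and 4 at D180, and 0, 0, and 1 for the differences between time points, and no other call changed. Dim signals limit Tlr7 and Tlr8.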
